A study of Sus scrofa with 50 samples.

Results

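The nephron, the filtering and reabsorbing unit of the kidney, was followed through 9 marker genes, each a Swiss-Prot entry that is used within the kidney as a marker of the glomerulus or of 1 stretch of the tubule. A gene was taken as the sum of TPM (a measure of transcript abundance, scaled for transcript length and library) over every assembled transcript whose best protein hit carried that entry name. All 9 entries were found, on 17 of 57085 transcripts and as 9 of 35133 genes. From each of 10 Korean minipigs the kidney, heart, lung, liver and spleen were taken, and their poly(A) RNA was sequenced as 1 library per organ. Animals S0235, S0242, S0276, S0309 and S0326 were of the ET type, and S0349, S0355, S0377, S0384 and S0385 of the L type. The labels give the type, the tissue and the animal; they state no treatment, age or sex, and they name the organ without the zone of it that was taken. No read counts came with the values, whose depth is therefore unknown, and no counting interval is attached.

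Blood is filtered in the glomerulus across a slit diaphragm built by podocytes, of which nephrin (NPHN) is the main adhesion protein. The proximal tubule recovers filtered protein through the receptors cubilin (CUBN) and megalin (LRP2) and water through the channel aquaporin-1 (AQP1), which also lines descending thin limbs and many small blood vessels. The thick ascending limb secretes uromodulin (UROM), the most abundant protein of normal urine. The distal convoluted and connecting tubules carry the calcium buffer calbindin (CALB1) and release tissue kallikrein (KLK). In the collecting duct, vasopressin moves aquaporin-2 (AQP2) into the luminal membrane of principal cells, and aquaporin-3 (AQP3) lets water out on the blood side.

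The kidney library of ET-type S0235 did not carry the profile of its label, and it is kept apart below. Its 9 marker genes lay below all 9 other kidneys, at 0 to 21.3% of their mean. CALB1 was listed at 0, AQP2 at 0.00956 TPM, UROM at 0.179 and CUBN at 0.115. NPHN, at 3.91 TPM, and AQP3, at 26.1 TPM, were least reduced, at 21.3% and 14.96% of the mean of the other kidneys. In the same library 15 of 15 measured lymphoid markers (of 16 listed) were above every other kidney, with a summed level of 6889 TPM against 63.3 to 576 TPM. The remaining 9 kidneys, 4 ET-type and 5 L-type, all expressed the 9 marker genes, with a lowest value of 8.32 TPM (NPHN in ET S0242).

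**Figure D1:**
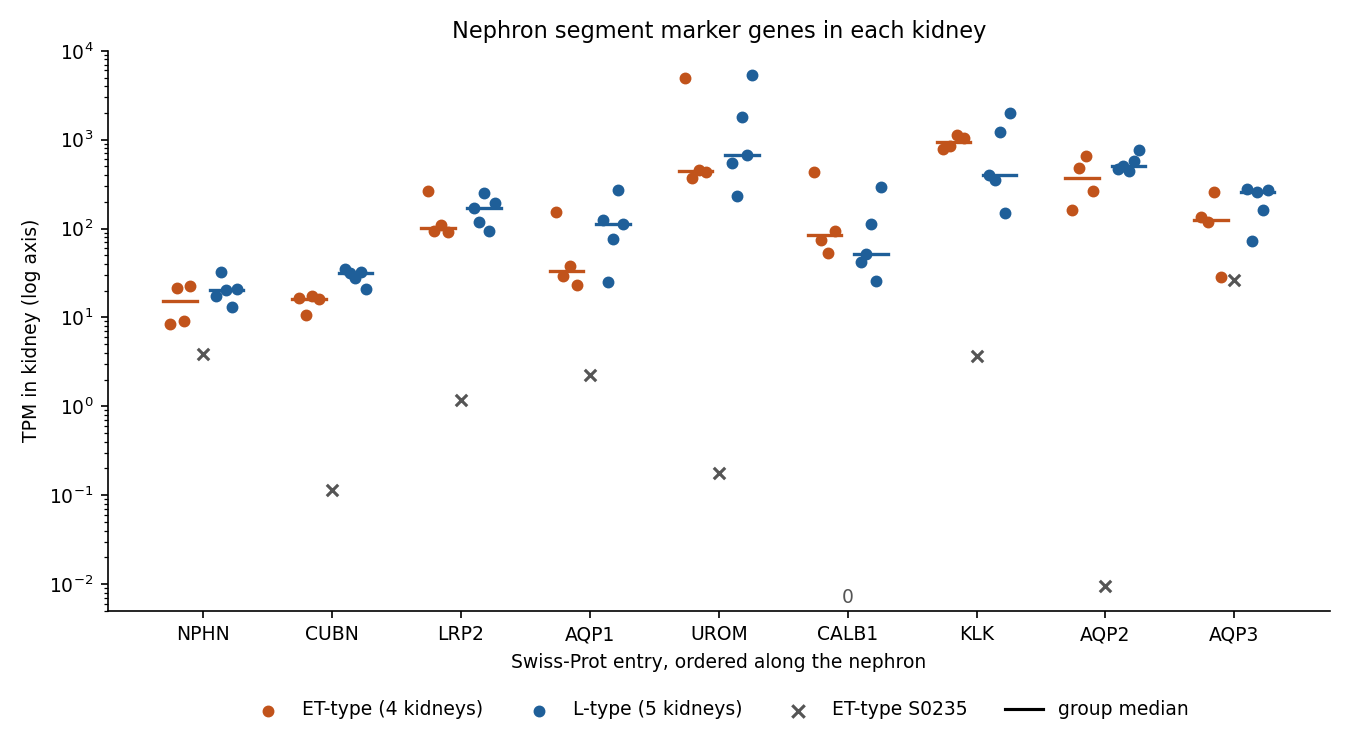
TPM of each marker gene (log axis) in 4 ET-type and 5 L-type kidneys, with the ET-type kidney of S0235 as a cross; short lines are group medians and each point is 1 animal. CUBN is the gene whose ET and L points do not overlap, UROM spans 229.6 to 5281 TPM, and the S0235 kidney is lowest for all 9 genes.

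The type comparison in kidney asked whether any segment's marker differed between ET- and L-type animals. None of the 9 genes passed limma's test over all 26569 genes (Benjamini-Hochberg adjusted p below 0.05), where 0.00376% of genes, a single transcript of 206 bases without a Swiss-Prot hit, did. At an unadjusted p below 0.05 there was 1 of the 9 genes, CUBN, against 8.7% of all genes in either direction and 8.05% lower in ET. A difference below is the ET-type mean less the L-type mean of log2(TPM + 1). It was negative for 7 of the 9 genes, also after median-ratio scaling, against 79.7% of all genes as deposited. The median over all genes was -0.28 as deposited and -0.08 after median-ratio scaling. No share of all genes is given for the scaled values, here or beside the gene lists below. In bulk tissue, fewer cells of a segment and less RNA per cell cannot be told apart.

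Nephrin is encoded by NPHS1 on chromosome 6, 45248325 to 45271892 (RefSeq, Sscrofa11.1, the build that the submitters' processing notes list). Its level was 8.32, 21.3, 9.13 and 22.8 TPM in the ET kidneys S0242, S0276, S0309 and S0326, and 17.5, 32.3, 20.5, 13.1 and 20.7 TPM in the L kidneys S0349, S0355, S0377, S0384 and S0385. The higher pair of ET kidneys lay within the L range and the lower pair below it. The means were 15.4 ± 7.72 (SD, n = 4) and 20.8 ± 7.10 TPM (SD, n = 5), a difference of -0.49 ± 0.37 (SE, limma adjusted p = 0.658). S0355 was the highest of the 9 kidneys and S0242 the lowest. Nephrin was held as 2 pieces that cover different stretches of the protein. The 2705-base piece (residues 739 to 1241 of the hit) was 11.9 ± 4.96 TPM in ET and 13.3 ± 5.44 TPM in L kidneys, a difference of -0.17. The 5145-base piece (residues 80 to 650) was 3.52 ± 2.98 and 7.48 ± 2.82 TPM, a difference of -1.10. The types overlapped for both pieces.

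Of 13 listed glomerular genes 10 were tested by type, none passed, and the estimate was negative for all 10, as for 79.7% of all genes. At an unadjusted p below 0.05 (limma) there were 3 of the 10, against 8.05% of all genes lower in ET. Their median was -0.52, and -0.29 after median-ratio scaling, when all 10 were still negative. L S0355 was the highest kidney for 5 of the 10 and ET S0309 the lowest for 5. Beside them, all 9 measured endothelial markers of 10 listed also had a negative estimate, with a median of -0.70, against the same 79.7% of all genes. At an unadjusted p below 0.05 there were 6 of the 9, against the same 8.05%. The summed level of these endothelial markers was 109 to 214 TPM in ET and 181 to 317 TPM in L kidneys. Their part in the glomerular values was not tested. The smallest p-values belonged to CLIC5, an intracellular channel protein of podocyte foot processes (5.21 ± 2.35 against 13.3 ± 4.63 TPM, -1.22 ± 0.37, limma adjusted p = 0.573), and PODXL, the podocyte surface sialomucin (9.41 ± 4.35 against 27.2 ± 15.3 TPM, -1.37 ± 0.43, adjusted p = 0.573). Both are also made outside the glomerulus: CLIC5 averaged 36.9 TPM in the other 4 tissues.

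**Figure D2:**
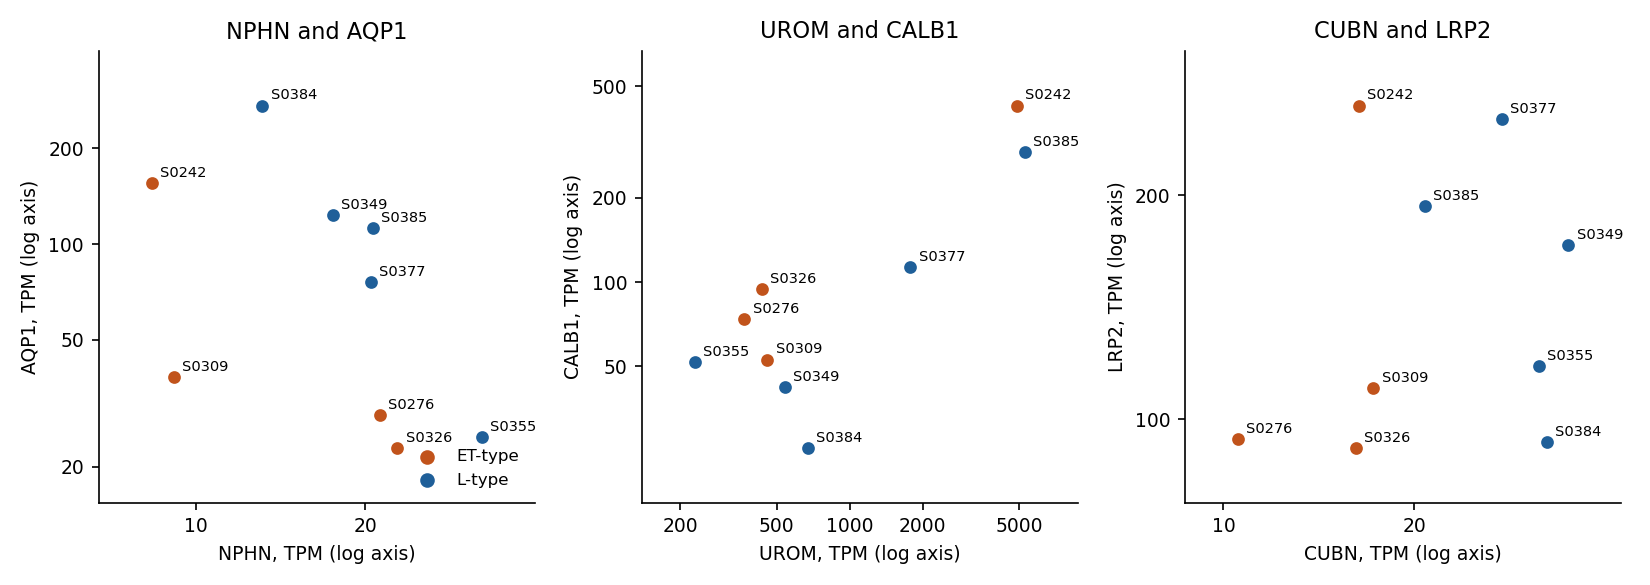
TPM in each of 9 kidneys for 3 pairs of marker genes (log axes on both sides, points labelled by animal, ET-type and L-type by colour). NPHN is highest in S0355, where AQP1 is among the lowest, UROM and CALB1 are both high in S0242 and S0385, and CUBN and LRP2 show no shared order.

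Cubilin (chromosome 10, 43102931 to 43414692) was the 1 marker whose groups did not overlap, which 2.92% of all genes also showed, 2.77% with ET below L. It was 16.4, 10.5, 17.2 and 16.2 TPM in the ET kidneys, and 35.0, 31.4, 27.5, 32.3 and 20.8 TPM in the L kidneys. Every ET kidney was below the lowest L kidney, S0385, in the values as deposited. After median-ratio scaling with factors taken over the 9 kidneys the types overlapped. L S0385, at 15.3 TPM, was then below ET S0242, S0309 and S0326 at 16.99, 19.9 and 20.7 TPM. The means were 15.1 ± 3.06 and 29.4 ± 5.50 TPM (SD, n = 4 and 5), and the difference was -0.92 ± 0.25 (95% interval -1.47 to -0.37, limma unadjusted p = 0.00363, adjusted p = 0.573). It was not called at this adjustment. In a fit that pooled the tissues, with a replicate block for the animal, it was -0.93 with an adjusted p of 1.56e-04, among 1.02% of genes called; that fit shares 1 estimate of spread with tissues in which CUBN was at most 1.15 TPM.

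The assembly held cubilin as 2 pieces, and they cover different stretches of the protein. The 4967-base piece (residues 1799 to 3082 of the hit) averaged 10.3 ± 2.61 TPM in ET and 21.1 ± 3.79 TPM in L kidneys, ranging from 6.996 to 13.3 and from 16.7 to 26.9 TPM. The 3778-base piece (residues 372 to 1052) averaged 4.77 ± 1.90 and 8.28 ± 3.73 TPM, with ranges of 3.06 to 7.27 and 4.08 to 12.7 TPM. Both were lower in ET by mean, by differences of -0.98 and -0.64, and the types overlapped for the shorter piece alone. Median-ratio scaling with factors taken over all 50 libraries, as in the other scaled differences, brought the gene's difference to -0.69 (limma adjusted p = 0.921). Leaving out the lowest library, ET S0276, brought it to -0.77.

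Megalin (chromosome 15, 75565299 to 75754604), the partner receptor of cubilin, did not show that separation. It was 264, 93.9, 110.2 and 91.4 TPM in the ET kidneys and 171, 118, 253, 93.1 and 193 TPM in the L kidneys. ET S0242 was the highest and ET S0326 the lowest of all 9, so the types overlapped along the whole range (-0.31 ± 0.39, adjusted p = 0.771). CUBN and LRP2 did not follow each other over the kidneys (r = 0.20 for the pair), and the ratio of LRP2 to CUBN ran from 5.65 to 16.1 in ET and from 2.88 to 9.30 in L kidneys. Megalin was split into 4 transcripts. The 8570-base piece, which covers residues 2246 to 4652 of the hit, was 58.4 ± 55.1 against 88.2 ± 41.7 TPM, with a difference of -0.83. A 3850-base transcript that matches residues 4596 to 4652 was 72.9 ± 30.7 against 61.9 ± 31.1 TPM, a difference of 0.30 with the opposite sign. Neither difference was tested, and the types overlapped for both transcripts.

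Aquaporin-1 (chromosome 18, 42063482 to 42076741) was the most uneven marker of the proximal tubule. It was 155, 29.0, 38.2 and 22.9 TPM in the ET kidneys and 124, 24.8, 75.8, 272 and 112 TPM in the L kidneys. The ET kidney S0242 lay within the upper L range, and the L kidney S0355 lay among the lower ET kidneys. The means were 61.3 ± 62.8 and 122 ± 92.6 TPM, and the difference was -1.05 ± 0.68 (95% interval -2.53 to 0.43, adjusted p = 0.630). The 9 endothelial markers given beside the glomerular genes also had negative estimates after median-ratio scaling, and none was at 0 in any kidney. Their part in the AQP1 values was not tested. AQP1 and NPHN had r = -0.51 over the 9 kidneys (exact permutation p = 0.167, adjusted over 36 pairs of marker genes p = 0.571) and rho = -0.77 (exact permutation p = 0.0214, adjusted p = 0.482). After type means were removed r was -0.85 (exact permutation p = 0.00352, adjusted p = 0.0735), so the pair did not pass with or without the type means. Without S0242 and S0309, the kidneys farthest from the NPHN median, r was -0.85.

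Of 34 listed proximal tubule genes 28 were tested by type, and none passed. The estimate was positive for 12 and negative for 16, with a median of -0.10 against -0.28 for all genes. After median-ratio scaling this split turned to 17 positive and 11 negative. CUBN had the smallest p of the list, followed by S22A8, the organic anion transporter OAT3, which averaged 194 ± 90.9 TPM in ET and 107 ± 42.5 TPM in L kidneys (0.81 ± 0.40, adjusted p = 0.586). ET S0242 was the highest of the 9 kidneys for 15 of the 28 genes and ET S0326 the lowest for 13, so both ends of the proximal tubule range were ET kidneys.

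Uromodulin (gene UMOD, chromosome 3, 25473048 to 25492286) varied most of the 9 genes in absolute terms and set much of the balance between segments. It was 4889.9, 367, 458 and 434 TPM in the ET kidneys and 539.5, 229.6, 1775, 673 and 5281 TPM in the L kidneys. ET S0242 and L S0385 stood far above the rest, L S0377 was between, and the other 6 reached at most 673 TPM. The highest kidney exceeded the lowest 23.0-fold, and the coefficient of variation was 124%. The type difference was -0.30 ± 0.95 (95% interval -2.37 to 1.77, adjusted p = 0.906), and its sign depended on single animals: 0.06 without ET S0276, 0.32 without L S0385 and -1.19 without ET S0242. A single transcript of 2352 bases, which covers residues 1 to 619 of the hit, carried 98.2% of the level.

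Other thick limb genes, named here after their values were seen, were high in the same kidneys. S12A1, the sodium-potassium-chloride cotransporter blocked by furosemide, was 256 TPM in S0242 and 237 TPM in S0385 against 48.1 to 90.6 TPM in the other 7. KCNJ1, the potassium channel that recycles potassium to the lumen, was 124 and 163 TPM there and 23.1 to 77.0 TPM elsewhere. For both transporters, as for UROM, these were the 2 highest of 9 kidneys. Of 13 listed thick limb and macula densa genes 7 were tested; S0242 was the highest kidney for 3 and S0385 for 4. By type none of the 7 passed, and 6 had a negative estimate (4 after median-ratio scaling), beside 79.7% of all genes as deposited. The smallest p-values were those of EGF, the epidermal growth factor precursor (-0.79 ± 0.62, limma adjusted p = 0.667), and PE2R3, a prostaglandin E receptor (-0.43 ± 0.51, adjusted p = 0.761).

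Calbindin (chromosome 4, 46701276 to 46723548) was 427, 73.9, 52.9 and 94.2 TPM in the ET kidneys and 42.2, 51.7, 113, 25.5 and 290.5 TPM in the L kidneys. The 2 kidneys highest for UROM were also highest for CALB1, and the lowest was L S0384. The difference was 0.64 ± 0.73 (95% interval -0.96 to 2.24, adjusted p = 0.751), and it changed sign, to -0.72, when S0235 was added. Over the 9 kidneys UROM and CALB1 had r = 0.83 (exact permutation p = 0.00832, adjusted p = 0.221) and rho = 0.52 (exact permutation p = 0.162, adjusted p = 0.485). Without S0242 and S0385 r was 0.28, so the relation over the 9 kidneys rested on those libraries. After type means were removed r was 0.89 over all 9 (exact permutation p = 0.00408, adjusted p = 0.0735), which did not pass.

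Tissue kallikrein (KLK1, chromosome 6, 55570632 to 55576398), a serine protease that frees kinins, was even among the ET kidneys and uneven among the L kidneys. It was 777, 847, 1117 and 1036 TPM in ET, a coefficient of variation of 16.8%. In L it was 395, 348, 1217, 149.9 and 1985 TPM, a coefficient of variation of 93.9%. The ET values sat in a gap of the L values, with 3 L kidneys below all of them and 2 above. The difference was 0.77 ± 0.63 (95% interval -0.62 to 2.15, adjusted p = 0.681) on the log2 scale and -0.76 with S0235 added. Of 12 listed distal and connecting tubule genes 10 were tested; none passed, 4 had a positive estimate (7 after median-ratio scaling), and the median was -0.07. PRVA, the calcium-binding parvalbumin of the early distal tubule, was 45.6 TPM in S0242 and 24.5 TPM in S0326 against 2.44 to 7.65 TPM in the other 7 kidneys (1.35 ± 0.60, adjusted p = 0.573). WNK1, a kinase that regulates distal salt transport, was 28.8 ± 3.81 against 51.5 ± 28.6 TPM (-0.65 ± 0.38, adjusted p = 0.617).

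Aquaporin-2 (chromosome 5, 15862739 to 15868565) was 161, 482, 649 and 264 TPM in the ET kidneys and 469.9, 505, 446, 577 and 772 TPM in the L kidneys. L kidneys lay within a 1.73-fold range and ET kidneys within a 4.03-fold range, with S0242 and S0326 below every L kidney. The means were 389 ± 219 and 554 ± 131 TPM, and the difference was -0.68 ± 0.39 (95% interval -1.53 to 0.18, adjusted p = 0.616). Aquaporin-3 (chromosome 10, 33045374 to 33050285) was 134, 118, 255 and 28.8 TPM in ET and 275, 72.6, 255, 160.1 and 273 TPM in L kidneys. S0326 was lowest for AQP3 and L S0349 highest, the groups overlapped, and the difference was -0.83 ± 0.59 (adjusted p = 0.647). The ratio of AQP2 to AQP3 ranged from 1.2 in S0242 to 9.15 in S0326, and r between them was 0.50 and did not pass.

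Of 13 listed principal cell genes 11 were tested by type, none passed, and 9 had a negative estimate (7 after median-ratio scaling), with a median of -0.41. Beside this count and those of the lists that follow here, 79.7% of all genes had a negative estimate as deposited. The smallest p-values were those of FXYD4, a regulator of the sodium pump in the collecting duct (41.6 ± 36.8 against 70.0 ± 20.04 TPM, -1.098 ± 0.50, adjusted p = 0.576), and of AQP2. Of 11 intercalated cell genes, which handle acid and base in the same duct, 9 were tested, none passed and 8 had a negative estimate (5 after median-ratio scaling), with a median of -0.27. VATB1, a proton pump subunit, was 74.1 ± 14.6 against 137 ± 75.9 TPM (-0.73 ± 0.38, adjusted p = 0.597), and FOXI1, the transcription factor of these cells, 31.6 ± 14.6 against 60.9 ± 48.97 TPM (-0.68 ± 0.52, adjusted p = 0.662). L S0385 was the highest kidney for 7 of the 9 intercalated and 6 of the 11 principal cell genes, and L S0384 the lowest for 6 of the intercalated ones. Within the aquaporin family, 9 of 13 listed entries were measured and 7 tested. None passed, 6 had a negative estimate with and without median-ratio scaling, and the smallest p-values were those of AQP2 and AQP7, a glycerol channel of the proximal tubule (13.6 ± 7.26 against 26.3 ± 16.2 TPM, -0.86 ± 0.53, adjusted p = 0.6254).

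**Figure D3:**
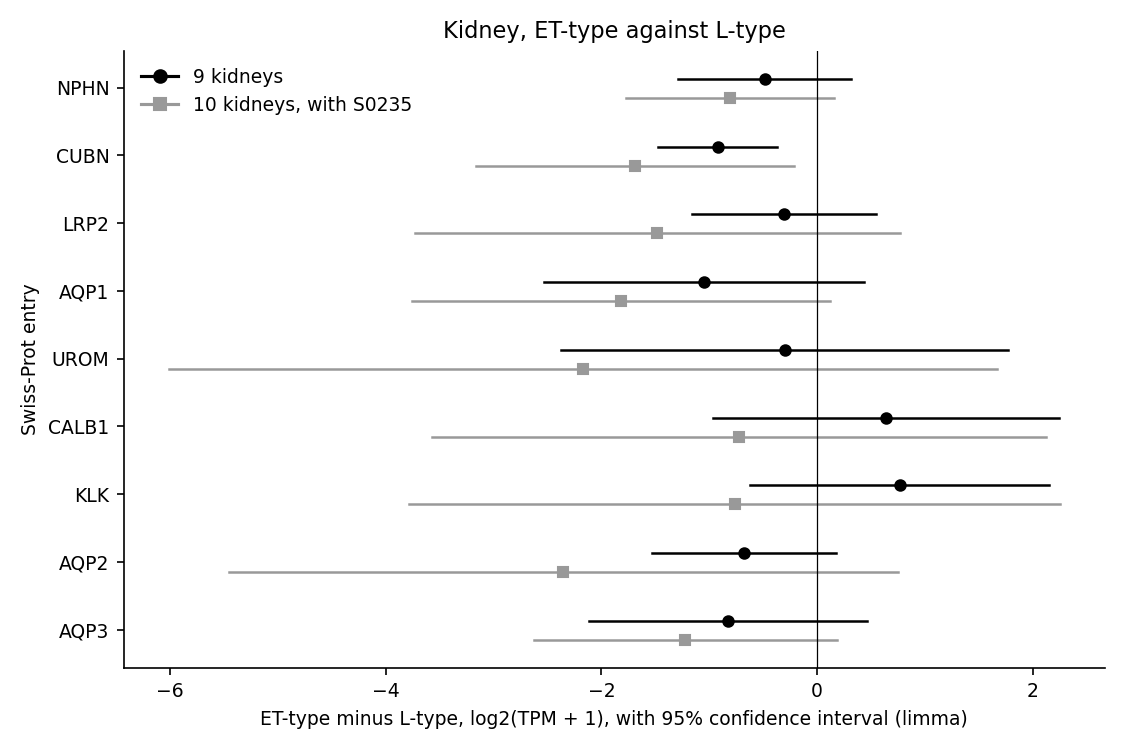
Difference of the 9 marker genes in kidney, ET-type less L-type, on the log2(TPM + 1) scale, with 95% confidence intervals from limma, over 9 kidneys (circles) and over 10 with S0235 (squares). The CUBN interval, -1.47 to -0.37, lies below 0, the other 8 intervals over 9 kidneys cross it, and adding S0235 moves all 9 differences lower and widens their intervals.

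The balance of segments was expressed as each segment's share of the summed TPM of the 9 genes, which was 1414 to 8949 TPM per kidney. These shares describe the marker RNA and not cell numbers, and a rise of 1 gene lowers the share of the others. The thick limb, by UROM alone, took 16.2% in L S0355 and 71.6% in ET S0242. The collecting duct took 4.32% in S0242 and 40.9% in S0355, and the glomerulus, by NPHN alone, 0.122% in S0242 and 2.28% in S0355. S0242 and S0355 were thus opposite ends for the thick limb, collecting duct and glomerular shares, and they belong to different types.

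By type, the shares overlapped in every segment. The distal and connecting tubule share, mostly KLK, was 17.6, 45.1, 43.2 and 56.2% in the ET kidneys and 21.2, 28.3, 31.8, 8.79 and 25.4% in the L kidneys, a mean of 40.5 ± 16.3% (SD, n = 4) against 23.1 ± 8.89% (SD, n = 5). The ET kidneys were above every L kidney except for S0242, which lay between the L kidneys S0384 and S0349. The proximal tubule share was narrow in ET, at 6.37, 6.53, 6.12 and 6.49%, and wide in L, at 15.9, 12.3, 8.52, 19.9 and 3.65%. Thick limb shares averaged 32.01 ± 26.4% and 35.5 ± 16.3%, collecting duct shares 20.4 ± 13.4% and 28.4 ± 13.2%, and glomerular shares 0.659 ± 0.505% and 0.902 ± 0.805%. No test was run on the shares, since they are scores over the chosen genes.

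**Figure D4:**
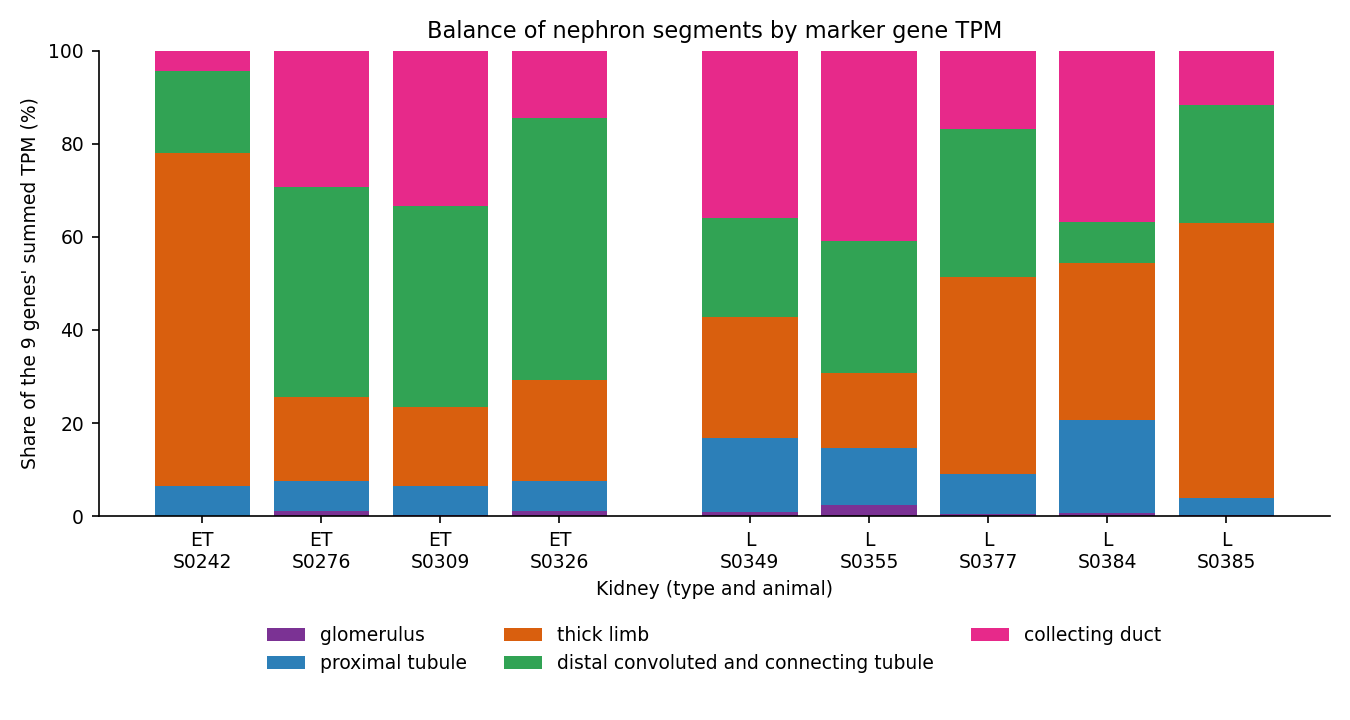
Share of the 9 genes' summed TPM (%) that each nephron segment took in each of 9 kidneys, 4 ET-type at left and 5 L-type at right; the bars sum to 100%. Thick limb (UROM) fills 71.6% in ET S0242 and 59.02% in L S0385, and the distal and connecting tubule (KLK and CALB1) fills 43.2 to 56.2% in the other 3 ET kidneys.

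Across segments, the kidneys differed in more than 1 direction. S0242 ranked first of 9 for LRP2 and CALB1 and last for NPHN and AQP2. S0355 ranked first for NPHN and last for UROM. S0385 ranked first for UROM, KLK and AQP2. S0384 ranked first for AQP1 and last for CALB1 and KLK; smooth muscle and stromal markers summed to 2721 TPM in it, against 392 to 1032 TPM in the other 8 kidneys. S0276, lowest for CUBN, was the highest of 9 for all 6 measured kidney injury genes, for example CLUS, the chaperone clusterin, at 1682 TPM against 62.1 to 179 TPM, and OSTP, osteopontin, at 2274 TPM against 46.4 to 279.5 TPM. It was also highest for 11 of the 15 measured lymphoid markers, which summed to 576 TPM. The part of these in its marker values was not tested. None of the 6 injury genes passed by type. All 6 had a positive estimate, also after median-ratio scaling, while 79.7% of all genes had a negative one as deposited. Their median was 0.18 as deposited (CLUS 0.79 ± 0.78, limma adjusted p = 0.725, and K1C19, the epithelial keratin 19, 0.37 ± 0.44, adjusted p = 0.761). S0276 is among the ET kidneys behind these estimates, and its part in them was not tested. In the other ET kidneys CLUS was 62.1 to 118 TPM and OSTP 51.8 to 128 TPM, against 77.1 to 179 and 46.4 to 279.5 TPM in L kidneys. None of the 5 tested genes of the renal papilla and osmotic stress passed either. All 5 had a negative estimate (4 after median-ratio scaling), beside the same 79.7% of all genes as deposited. The smallest p-values were those of SC6A6, the taurine transporter (-0.66 ± 0.34, limma adjusted p = 0.599), and ALDR, aldose reductase, which makes sorbitol (-0.55 ± 0.41, adjusted p = 0.657).

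The genes whose level followed a marker most closely over the 9 kidneys were taken from 9341 genes with an entry and a mean of at least 5 TPM. For UROM they were HEXI1 (r = 0.996), HACD3 (0.98) and COPT1 (0.98), and for LRP2 FBXL4 (0.96), MFA3L (0.95) and GLTD2 (0.95). For NPHN they were PTPRQ (0.93), ROBO2 (0.91) and APLP1 (0.89), and for KLK TM52B (0.96), CLN8 (0.94) and SRBP2 (0.93). For AQP2 they were CUL7 (0.97), RTEL1 (0.96) and HXD4 (0.95), and for AQP3 AQP6 (0.97), DMAC1 (0.96) and S2534 (0.95). These are the extremes of a search over 9 points and carry no test. AQP6, an intracellular channel of intercalated cells, lies beside AQP2 on chromosome 5 (15888080 to 15892113).

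Against the other tissues, kidney was higher on log2(TPM + 1) for all 9 genes when set against the mean of the log values of heart, liver, lung and spleen (limma, animal as block, 49 libraries), a call that 36.6% of 32855 genes also met. For AQP3 this rests on the log scale: its mean TPM was 175 in kidney and 183 over the other tissues, where heart and liver were near 0. Against each of the other 4 tissues singly it was higher for 7 of 9, all but AQP1 and AQP3, which 9.17% of genes met. The differences on log2(TPM + 1) were 3.92 ± 0.13 for NPHN, 4.38 ± 0.11 for CUBN and 6.17 ± 0.27 for LRP2. They were 9.23 ± 0.28 for UROM, 6.44 ± 0.20 for CALB1, 8.79 ± 0.24 for KLK and 8.69 ± 0.13 for AQP2 (SE for these 7). The genes were chosen as markers of kidney segments, so a higher level in kidney was largely set by that choice. NPHN, CUBN, UROM, CALB1 and AQP2 averaged below 1 TPM in each other tissue and entered the fit through kidney alone. These calls are therefore a description and not a test. Each SE comes from 1 estimate of spread per gene, shared with tissues where these genes were low. It does not measure the spread among kidneys, where UROM ran from 229.6 to 5281 TPM. For the same 7 genes no library of the other tissues reached the lowest of the 9 kidneys. CALB1 stayed at or below 0.126 TPM in all 40 libraries of the other tissues, and AQP2 was listed at 0 in 23 of them, all 10 livers included. In the wider lists kidney was higher than the mean of the others for 7 of 11 glomerular, 27 of 29 proximal tubule, 7 of 8 thick limb and all 10 distal and connecting tubule genes. In the collecting duct it was higher for 10 of 12 principal cell and all 9 intercalated cell genes, where 36.6% of all genes were. Kidney was called lower for 3 of the glomerular, 1 of the thick limb and 1 of the principal cell genes. These lists were also drawn up as genes of kidney cells.

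**Figure D5:**
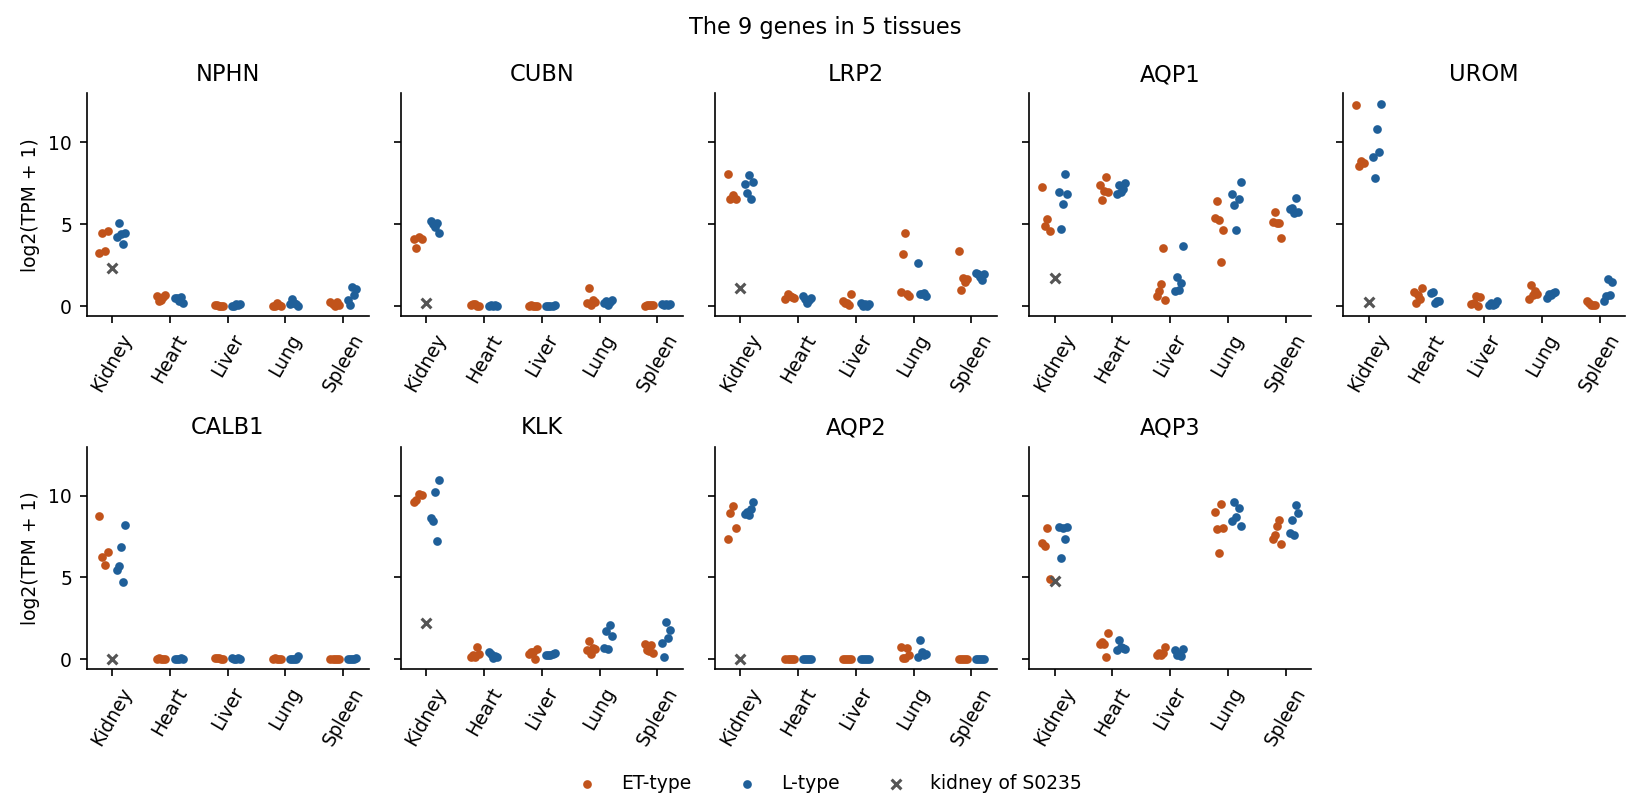
The 9 marker genes on log2(TPM + 1) in kidney, heart, liver, lung and spleen; each point is 1 library, coloured by type, and the cross is the kidney of S0235. The first 3 genes, UROM, CALB1, KLK and AQP2 are high in kidney alone, AQP1 is as high or higher in heart, and AQP3 is highest in lung and spleen.

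Aquaporin-1 was ordered heart, kidney, lung, spleen and liver by mean. It was 148 ± 41.1 TPM in heart (SD, n = 10), 94.9 ± 82.4 in kidney (n = 9), 68.4 ± 55.6 in lung, 48.9 ± 21.6 in spleen and 3.13 ± 4.20 in liver (n = 10 each). Heart was above kidney (1.11 ± 0.41, adjusted p = 0.0164), and liver was below all others. No difference of kidney was called from lung (0.45 ± 0.41, limma adjusted p = 0.348) or spleen (0.55 ± 0.41, adjusted p = 0.255). These SEs come from the fit of 49 libraries, with 1 estimate of spread per gene shared by the tissues, and do not measure the spread among kidneys. Kidney exceeded the mean of the other 4 by 1.1 ± 0.33 (adjusted p = 0.00401), and by 0.70 (adjusted p = 0.1001) when the S0235 kidney was included.

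Aquaporin-3 was ordered lung, spleen, kidney, heart and liver. It was 423 ± 220.2 TPM in lung, 307 ± 172 in spleen, 175 ± 93.2 in kidney, 0.864 ± 0.542 in heart and 0.338 ± 0.181 in liver. In the same fit no difference between lung and spleen was called (0.42 ± 0.32, limma adjusted p = 0.244). Both were above kidney (lung by 1.33 ± 0.33, adjusted p = 5.36e-04, and spleen by 0.91 ± 0.33, adjusted p = 0.0159). The S0235 kidney held AQP3 at 26.1 TPM, below all 10 spleens, whose lowest value was 133 TPM.

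Low levels of the other markers outside the kidney were uneven among animals. LRP2 in lung was 21.3 TPM in ET S0276, 8.13 in ET S0242 and 5.30 in L S0349, and under 1 TPM in the other 7. LRP2 in spleen was 9.19 TPM in ET S0235 and 0.943 to 3.06 TPM in the other 9. By mean, most of the lung and spleen megalin lay on the 8570-base transcript, which was assembled from L-type spleen. In lung this came from the libraries of S0276, S0242 and S0349. In the other 7 lungs a 2621-base piece was higher than the 8570-base one, for example 0.593 against 0.234 TPM in ET S0235. UROM outside the kidney, at most 2.13 TPM, was mainly a 1703-base transcript that covers residues 440 to 528 of the hit, at 0.487 ± 0.377 TPM in heart and 0.506 ± 0.358 TPM in lung, and not the 2352-base one.

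Type differences of the markers outside the kidney could be tested for 10 pairs of gene and tissue with a mean of at least 1 TPM. The pair that passed was AQP1 in spleen, where 22.2% of all genes passed, against 0.0238% in heart, 0.00933% in liver and 0.213% in lung. The groups overlapped for all 10 pairs, while 15.8% of genes in spleen, 4.68% in heart, 1.08% in liver and 4.2% in lung had groups that did not overlap. AQP1 in spleen was 34.5, 53.1, 32.3, 32.5 and 16.6 TPM in the ET animals and 59.99, 63.6, 49.5, 94.1 and 53.3 TPM in the L animals. The ET spleens were below every L spleen except for S0242, and S0242 lay between L S0377 and L S0385. The means were 33.8 and 64.1 TPM (-0.95 ± 0.27, limma adjusted p = 0.0339). Endothelial markers in the same spleens, 9 measured with none at 0, summed to 91.8 to 219 TPM in ET and 155 to 191 TPM in L. The call was lost under median-ratio scaling (-0.45, adjusted p = 0.307) and in the single fit with the animal as replicate block (adjusted p = 0.252).

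In lung AQP1 ran the same way without passing. It was 40.6, 83.4, 36.5, 5.46 and 23.7 TPM in ET and 114, 72.1, 24.5, 91.4 and 192 TPM in L animals, with ET S0235, S0242 and S0276 within the L range (-1.50 ± 0.66, unadjusted p = 0.0425, adjusted p = 0.291). Endothelial markers in those lungs summed to 138 to 477 TPM in ET and 229 to 1150.3 TPM in L, and their part was not tested. In heart the AQP1 levels were alike, at 150 and 146 TPM (-0.02 ± 0.25, 95% interval -0.56 to 0.52, adjusted p = 0.973).

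Whether a type difference varied among tissues was tested for each marker by the interaction of type and tissue over 49 libraries. CUBN passed (F = 10.6, limma adjusted p = 9.68e-04), as did 13.3% of all genes, and the other 8 had adjusted p-values of at least 0.168. CUBN entered the fit through kidney alone. It averaged 0.0172 to 0.271 TPM in the other 4 tissues, so its difference there was near 0 on this scale. The test thus rests on the kidney difference, which was not called in kidney alone. With a pseudocount of 0.1 in place of 1 CUBN did not pass.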

How the data were processed

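The libraries were stranded and made from poly(A) RNA. The submitters' processing notes name Trimmomatic 0.36, Salmon 1.10.0 and the build Sscrofa11.1. The authors deposited TPM for 57085 assembled transcripts, each library totalling 1e+06, with the best Swiss-Prot hit of every transcript that had one (63.9%). Column names of the deposited TPM match the labels' tissue, type and animal. From these, TPM was summed per entry, and transcripts without a hit were kept singly. The sum mixes genes held as 1 transcript (AQP1, AQP2, AQP3, CALB1) with genes split into pieces (such as NPHN, CUBN and LRP2), so levels between genes are approximate. Gene locations were looked up by symbol in RefSeq's gene list for Sscrofa11.1, where all 9 symbols matched; sequences were not used here.

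In R 4.3.3, limma 3.58.1 was run with a mean-variance trend on log2(TPM + 1). Genes averaging 1 TPM or more entered, and where tissues were fitted together a mean of 1 TPM in any tissue was enough. Benjamini-Hochberg adjustment ran over all genes tested, with a threshold of 0.05. A fold on this scale understates the change of low genes. Kidney was fitted by type on 9 libraries, and the other tissues on 10 each. Tissues were compared over 49 libraries with the animal as fixed block, since the labels tie each animal's 5 libraries together; in the interaction fit the animal was a random block with a consensus correlation of 0.12. Correlations used exact 2-sided permutation, and random permutations where S0235 was included. The fit by type, the fit of kidney against the other tissues and the correlations were tried on simulated data, which carried no animal effect. The interaction fit, which also gave the pooled type differences, was not. Python 3.11.15, pandas 2.3.3, numpy 2.4.6, scipy 1.17.1, matplotlib 3.10.9 and data.table (version 1.17.8) were used.

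The genes, the 18 gene lists and the comparisons were chosen with earlier results of these data known. Named are the 9 genes, and 1 further gene of the chosen set is not reported here. Also named are, in each segment, aquaporin, injury and papilla list the genes that passed by type, or else the 2 with the smallest p; and the 3 genes most like UROM, AQP2, LRP2, NPHN, KLK and AQP3 over the kidneys. Alternatives were a pseudocount of 0.1, other filters on low values, median-ratio scaling, transcripts of at least 80% identity, the highest transcript alone, S0235 included, each animal left out and 1 fit with or without a block for the animal.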

Additional observations from a re-analysis of the deposited data

Results flagged for a closer look

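Of 47 groups of 4 or 5 libraries tested for a value that stands apart (Dixon's criterion on log2(TPM + 1)), 7 held one. Chance gives about 1 in 20 for independent groups, but the ET kidneys were tested both with and without S0235, so these groups share libraries. The flags of the S0235 kidney also concern a library already set apart for its low markers. The count is therefore not to be read against that rate. With the S0235 kidney counted among the ET kidneys, it was the low value for CUBN at 0.115 TPM (next 10.5), LRP2 at 1.17 TPM (next 91.4), KLK at 3.67 TPM (next 777) and AQP2 at 0.00956 TPM (next 161). Without it, UROM in ET S0242 stood high at 4889.9 TPM (next 458), and CUBN in ET S0276 stood low at 10.5 TPM (next 16.2). In the lungs of L animals, LRP2 stood high in S0349 at 5.30 TPM (next 0.762). The type difference of CUBN varied among tissues by the test of the interaction (adjusted p = 9.68e-04 in limma, over 49 libraries), as it did for 13.3% of all genes. CUBN entered that fit through kidney alone and averaged 0.0172 to 0.271 TPM elsewhere. The test thus rests on the kidney difference, which was not called in kidney alone (limma adjusted p = 0.573).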

How the results depend on the processing

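The count of all genes called by type in kidney, 1 in the analysis as reported, was 0 with S0235 included, without a filter, at a mean of at least 5 TPM, after median-ratio scaling and with transcripts of at least 80% identity. It was 2 with a pseudocount of 0.1, 5 with the highest transcript of each entry, 336 when the tissues were pooled with a replicate block for the animal, and 0 to 11 with 1 kidney left out (11 without ET S0309). Of the 9 markers 0 were called in kidney, and 1, CUBN, in the fit with the replicate block. All 9, chosen as kidney segment markers, were called higher in kidney than in the mean of the other tissues on the log scale (AQP3 was not higher by mean TPM), except AQP1 with S0235 included. Without the replicate block this count did not change. The markers called by type in other tissues, 1 as reported, were 0 after median-ratio scaling and with the replicate block, and 0 to 2 with 1 animal left out. AQP1 in spleen was lost without S0276, S0326, S0377, S0384 or S0385, and KLK in spleen was added without S0355 (-0.96, adjusted p = 0.0348). The interaction called 1 marker, and 0 with a pseudocount of 0.1. Of 36 marker pairs 0 were called by the exact permutation test, also on residuals from the type means, with a pseudocount of 0.1, after median-ratio scaling and with 1 kidney left out. With S0235 included 10 were called by random permutations, and that kidney was the lowest for all 9 markers. Without S0235, 4 pairs had an unadjusted exact permutation p below 0.05. Beside UROM and CALB1 they were LRP2 and UROM (r = 0.79, and 0.66 without S0242 and S0377), LRP2 and CALB1 (0.68, and 0.49 without the same kidneys), and CALB1 and KLK (0.69, and 0.88 without S0242 and S0385). Of the values for single markers, 298 kept their direction and their side of the threshold, 16 moved, 2 passed newly and 8 no longer passed. The cause of these changes was not tested. Without read counts, the precision of low values, such as CUBN near 10 TPM or markers under 1 TPM outside the kidney, could not be given.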

Other observations

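In the kidney comparison by type (9 kidneys, limma), no gene of the smaller lists passed either. In the thin limb list, AQP1 and CLCKA, a chloride channel, were the 2 measured genes, and CLCKA was 55.6 ± 19.4 TPM in ET and 53.9 ± 53.6 TPM in L kidneys (0.58 ± 0.66, adjusted p = 0.752). RENI, the renin of juxtaglomerular cells, was 9.02 ± 5.41 against 12.5 ± 8.12 TPM (-0.45 ± 0.52, adjusted p = 0.754), and it was listed at 0 in the S0235 kidney. Of the lymphoid markers 9 were tested and 8 had a positive estimate (median 0.64), as did both blood markers (median 0.40), while 79.7% of all genes had a negative one. ET S0276 was the highest kidney for 8 of the 9 lymphoid markers. CXL13, for example, was 8.80 TPM in it and 0.289 to 2.26 TPM in the other kidneys compared. The part of this library in the lymphoid estimates was not tested. Of the smooth muscle and stromal markers 6 of 9 had a negative estimate (median -0.20), 4 of 9 after median-ratio scaling. All 3 tested adipocyte markers (median -0.43), 1 of 2 urothelial markers (median -0.24) and the single measured adrenal marker (-0.83) had negative estimates.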
